A study of Mus musculus with 9 samples.

Results

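Mitochondrial ribosomal proteins are the nuclear-encoded protein subunits of the ribosome inside mitochondria. They were chosen by symbol, as every gene named Mrpl or Mrps with a number and at most 1 further letter and with at least 10 counts summed over the 9 libraries. All 78 genes with such a symbol met the count minimum, among 55536 genes in the tables and 25875 with a count in any library. Their summed counts ran from 699 to 45966, and all 78 passed the filter on low counts applied before testing.

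RNA came from muscle of male ICR mice, an outbred stock, in 3 groups of 3 libraries. The aged GW8510 group (libraries 1, 3 and 4) held 18-month mice that received the small molecule GW8510 intraperitoneally, 2 mg/kg daily over 14 days. The aged vehicle group (libraries 1, 3 and 4) held vehicle-treated 18-month mice, and the young vehicle group (libraries 2, 3 and 4) held vehicle-treated 2-month mice. GW8510 was dissolved in sodium carboxymethylcellulose, and no genetic alteration is given for any group. The labels do not name the muscle and do not say that each library came from a separate animal, so p-values measure the spread between samples, which may be technical.

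The mitochondrial ribosome translates the few messenger RNAs of the mitochondrial genome, which encode core subunits of the respiratory chain and of ATP synthase. Its ribosomal RNAs are transcribed from mitochondrial DNA, whereas its proteins are made in the cytosol and imported. The small subunit binds and decodes the messenger RNA, and the large subunit joins the amino acids. In muscle, a tissue with a high demand for ATP, these proteins are part of the machinery that builds the respiratory chain.

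Of the 78 genes, 26 encode small-subunit and 51 large-subunit proteins. Mrps36 belongs to neither, since its protein is now known as a part of the 2-oxoglutarate dehydrogenase complex. Proteins with a bacterial counterpart numbered 47, and 29 are found in mitochondrial ribosomes without one. All 78 are annotated as protein coding, on 17 chromosomes. Exons of 33 members share bases with another gene, in 28 of them on the opposite strand. The use of strand in counting is not given in the sources used here, so reads of such a member and of its antisense neighbour cannot be told apart.

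Start sites of 33 members lay within 1000 bases of the start of a protein-coding gene on the opposite strand. Such neighbours included other mitochondrial genes, among them Sars2, the mitochondrial seryl-tRNA synthetase, beside Mrps12, and Ndufs6, a complex I subunit, beside Mrpl36. Mrps11 and Mrpl46 were neighbours of this kind and the only pair in which both genes were members.

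Promoters are shown for 3 members that recur in the results below, each with a match to a factor motif in capitals. Mrpl41 and Mrpl23, which also recur, had no such match. RefSeq promoter sequences of GRCm38.p6, from 250 bases before to 50 after the start, were matched for 69 of the 78 members. The motifs searched on both strands were GCGC followed by any base and TGCGC for NRF1, CCGGAAG for GABP and other ETS factors, AAGATGGC for YY1 and TATAAA for the TATA box. NRF1, GABP and YY1 are known as factors at nuclear genes of mitochondrial proteins.
Mrpl14 promoter (chr17:45686099-45686398, plus strand, NRF1 match): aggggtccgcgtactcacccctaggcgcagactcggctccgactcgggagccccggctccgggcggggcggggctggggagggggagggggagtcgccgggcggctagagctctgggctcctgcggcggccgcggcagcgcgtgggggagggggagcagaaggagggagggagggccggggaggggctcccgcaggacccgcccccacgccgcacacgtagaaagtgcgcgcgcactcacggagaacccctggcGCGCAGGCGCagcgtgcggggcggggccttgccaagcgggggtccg
Mrps7 promoter (chr11:115603890-115604189, plus strand, YY1 match): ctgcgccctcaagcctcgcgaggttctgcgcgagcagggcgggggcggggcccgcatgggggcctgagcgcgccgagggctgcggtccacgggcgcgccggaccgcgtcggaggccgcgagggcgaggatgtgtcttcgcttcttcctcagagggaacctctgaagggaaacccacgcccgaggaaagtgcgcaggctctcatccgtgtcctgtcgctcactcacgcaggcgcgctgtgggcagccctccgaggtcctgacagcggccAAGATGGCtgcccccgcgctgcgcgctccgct
Mrps18c promoter (chr5:100798509-100798808, plus strand, GABP match): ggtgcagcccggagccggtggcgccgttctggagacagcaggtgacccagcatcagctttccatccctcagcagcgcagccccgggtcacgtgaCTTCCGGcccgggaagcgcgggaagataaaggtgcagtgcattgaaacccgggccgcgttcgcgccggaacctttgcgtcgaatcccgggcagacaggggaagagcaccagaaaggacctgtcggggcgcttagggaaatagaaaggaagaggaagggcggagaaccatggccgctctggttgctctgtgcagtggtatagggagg

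The GABP motif stood in 25 of 69 member promoters (36.2%), against 17.6% of 10531 promoters of tested genes and 9.12% of all 27025 promoters. The NRF1 motif stood in 13 (18.8%), against 10.2% of promoters of tested genes and 4.78% of all. The YY1 motif stood in 12 (17.4%), against 4.58% and 2.88%. The TATA box stood in 4 (5.80%), against 7.46% and 14.2%. No member promoter had matches of different motifs sharing bases, and a match describes the letters and not a bound site. Member promoters had a median GC content of 58.3%, against 60.7% in promoters of tested genes and 52.7% in all promoters.

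Levels between genes were compared in TPM, a unit of transcript abundance per gene length. Member levels spanned 3.59 to 541 TPM, with a median of 47.2 TPM over the 9 libraries, against 422 TPM for 76 cytosolic ribosomal protein genes. The highest were Mrpl42 (541 ± 44.8 TPM, SD, n = 9), Mrps21 (412 ± 49.2 TPM), Mrpl33 (209 ± 28.0 TPM), Mrpl30 (200 ± 24.1 TPM) and Mrpl52 (190 ± 31.4 TPM). Mrpl42 and Mrps21 stood apart from each other and from the rest, while Mrpl33, Mrpl30 and Mrpl52 did not differ beyond their spread. The lowest were Mrpl19 (3.59 ± 1.24 TPM), Mrpl23 (6.85 ± 2.96 TPM), Mrps30 (12.9 ± 3.31 TPM), Mrps2 (13.1 ± 2.70 TPM) and Mrpl39 (16.0 ± 1.96 TPM). Of these, Mrpl19 and Mrpl23 did not differ beyond their spread, nor did Mrpl23 and Mrps30. The same held among Mrps30, Mrps2 and Mrpl39. Small-subunit genes had a median of 39.6 TPM and large-subunit genes a median of 53.4 TPM. All values of Mrpl23 are uncertain, because an identical pseudogene sequence carried far more counts, as described further on.

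**Figure D1:**
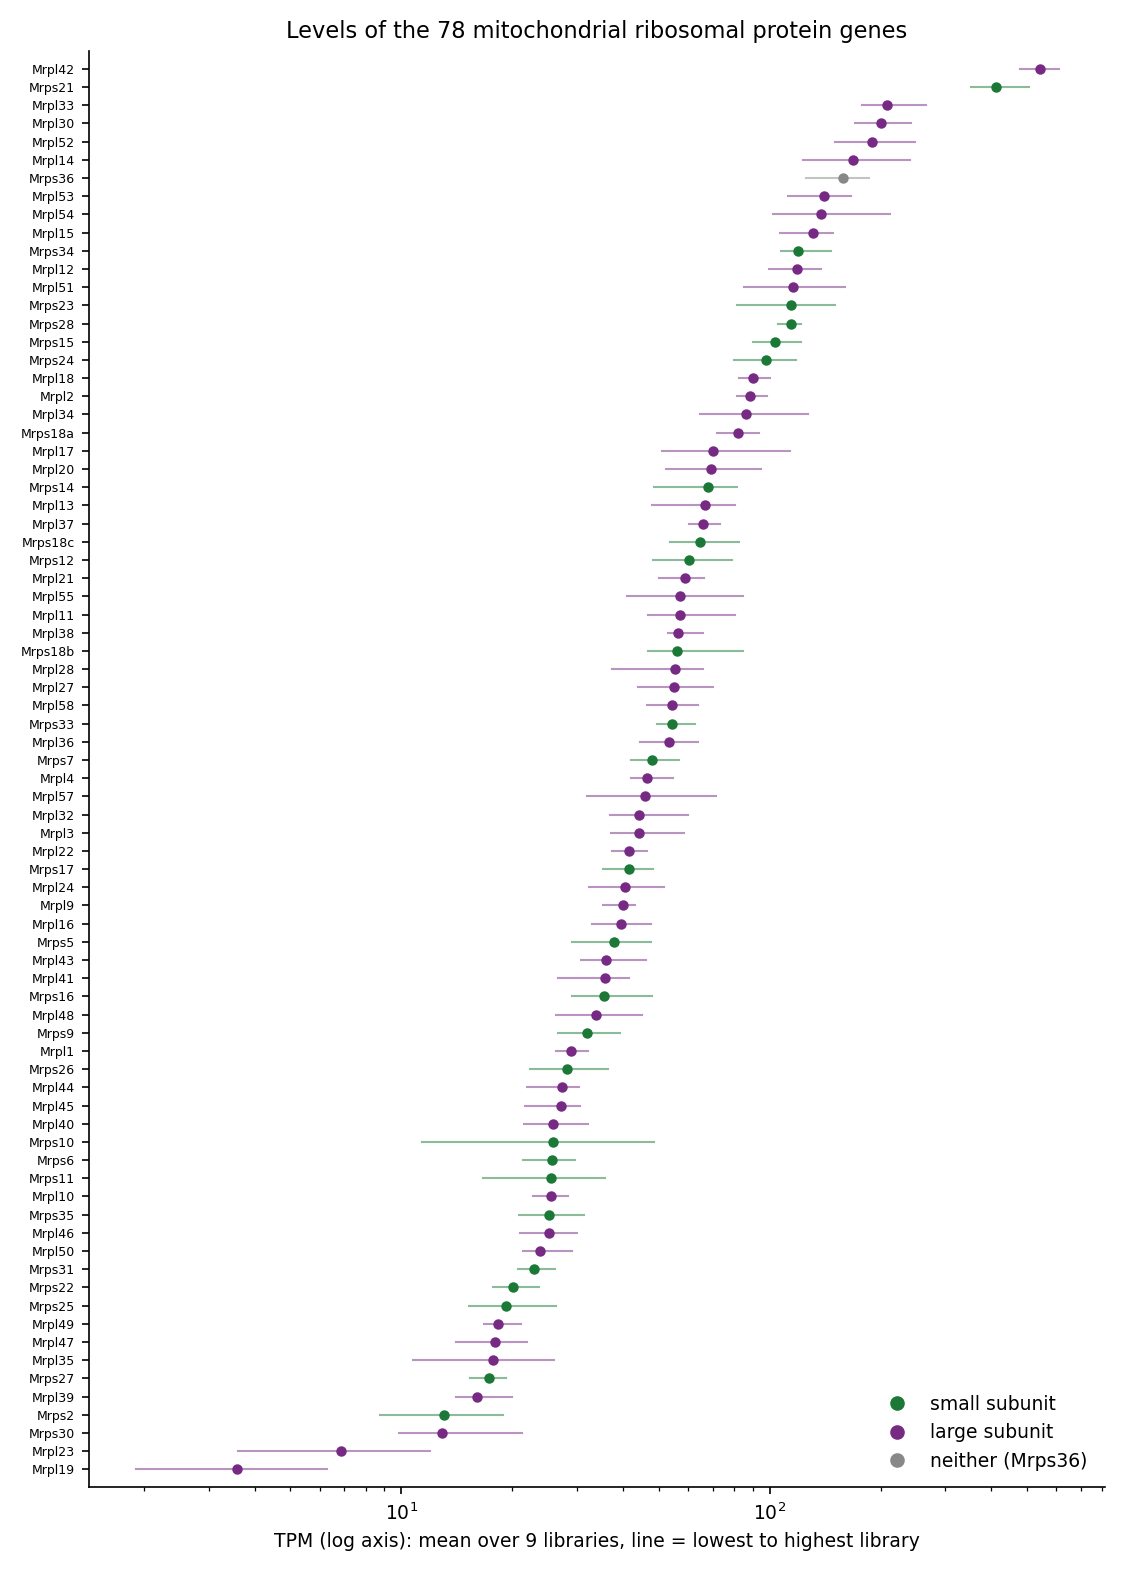
Mean TPM of the 78 genes over the 9 libraries on a log axis, with a line from the lowest to the highest library, coloured by ribosomal subunit. Mrpl42 at 541 TPM and Mrps21 at 412 TPM lead, and Mrpl19 at 3.59 TPM is lowest.

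Across libraries each gene was followed in CPM, its counts set against the library's total after TMM scaling. Library totals ran from 21718965 to 27437970 counts, and 3 counts correspond to 0.109 to 0.138 CPM, a floor that covers counting error only. Members took 0.304% to 0.399% of a library's counts. Within groups the coefficient of variation of a member had a median of 15.2%, against 17.6% for 9731 tested genes in the same CPM range. It was lowest in Mrps31 (7.23%) and highest in Mrps10 (44.8%).

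The members moved together in some libraries and were split in others. The mean over the 78 genes of log2 CPM, centred on each gene's mean, was 0.24, 0.20 and -0.12 in aged GW8510 libraries 1, 3 and 4, against -0.06, 0.11 and -0.01 in aged vehicle libraries 1, 3 and 4 and -0.36, 0.01 and -0.01 in young vehicle libraries 2, 3 and 4. On this scale aged GW8510 libraries 1 and 3 were highest, young vehicle 2 was lowest, and the ranges of the 3 groups overlapped. The order was another one by summed TPM of the members. There aged vehicle 4 was highest at 6210 TPM and aged GW8510 4 lowest at 4914 TPM, with young vehicle 2 at 5007 TPM. In young vehicle 2, 77 of 78 members lay below their own mean and 58 had their lowest value. In aged GW8510 1 and 3, 74 and 72 members lay above their own mean, and 29 and 23 had their highest value. Aged vehicle 1 and 4 and young vehicle 3 and 4 were split, with 30, 38, 38 and 36 members above their own mean. The TMM factor was largest in young vehicle 2 (1.11) and smallest in aged GW8510 1 and 3 (0.943 and 0.946). As a share of all counts, where this factor has no part, the summed members were also lowest in young vehicle 2 (0.304%). They were highest in aged GW8510 1 and 3 (0.399% and 0.387%). The part of the factor in the size of these shifts was not tested. In aged vehicle 4 the members scattered most, with an SD over members of 0.31 log2 units, against 0.14 to 0.19 in the other 8 libraries.

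**Figure D2:**
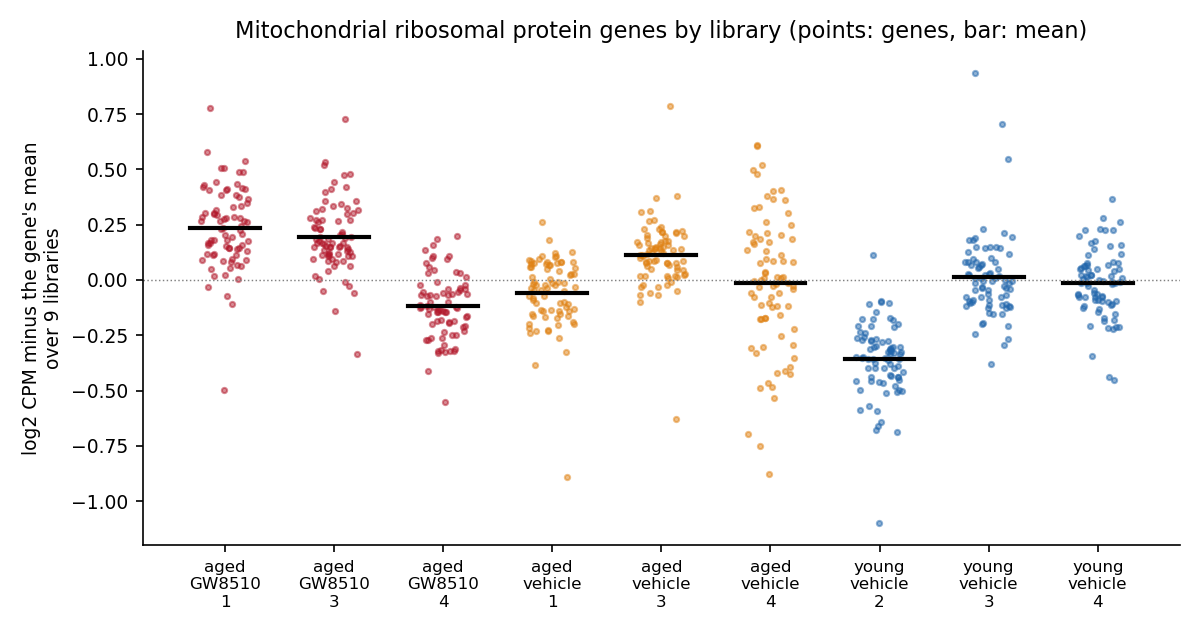
Log2 CPM of each of the 78 genes (points), centred on the gene's mean over 9 libraries, in aged GW8510, aged vehicle and young vehicle libraries, with the mean over genes as a bar. The bar of young vehicle 2 is lowest at -0.36, and points of aged vehicle 4 scatter most.

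Small- and large-subunit genes kept close levels in every library, at 0.26 and 0.22 in aged GW8510 1 and at -0.37 and -0.35 in young vehicle 2 on the centred log2 scale. Cytosolic ribosomal protein genes differed from this order in aged vehicle 4, where their mean was 0.48 while that of the members was -0.01. They were also high in aged GW8510 1, at 0.50, and low in young vehicle 2, at -0.47. In young vehicle 3 and 4 their means were -0.18 and -0.21, against 0.01 and -0.01 for the members. In aged GW8510 4 their mean was -0.32, against -0.12 for the members.

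Muscle markers were present in every group. The actin gene Acta1 averaged 22568 TPM in aged GW8510, 24995 TPM in aged vehicle and 37304 TPM in young vehicle libraries. Mb went the other way, at means of 5454 TPM, 3283 TPM and 2238 TPM in the same order. Myh7, the slow myosin gene, overlapped between groups. Its range was 0.75 to 10.1 TPM in aged GW8510, 0.64 to 7.21 TPM in aged vehicle and 0.44 to 3.46 TPM in young vehicle libraries. With age, 4 of the 12 fibre markers had a log2 fold change above 0, at a median of -0.09, and none was called (edgeR). Of the fibroblast markers, 1 of 7, Cd34, was called lower with age (edgeR), where 1.22% of all genes were called in either direction, and no tendon marker was called. The 7 fibroblast markers summed to 115 to 282 TPM in aged GW8510, 60.6 to 228 TPM in aged vehicle and 405 to 864 TPM in young vehicle libraries. The 5 tendon markers that passed the filter summed to 21.2 to 38.2 TPM in aged GW8510 and 18.0 to 37.0 TPM in aged vehicle libraries. In young vehicle libraries they summed to 70.2 to 132 TPM, and Comp was at 0 in aged vehicle 4. Scx, 1 of these 5, averaged 5.28 TPM, 4.66 TPM and 4.76 TPM in the 3 groups in that order. With age, all 6 endothelial, 6 macrophage and 5 smooth muscle and pericyte markers had log2 fold changes below 0. The 5 erythroid markers were all above 0, as were 1 of 5 adipocyte and 1 of 5 Schwann markers. None of these was called (edgeR). With treatment all 5 adipocyte markers were above 0, at a median of 1.99. Their mean on the centred log2 scale was 2.45 in aged GW8510 4, against -0.84 and -1.39 in aged GW8510 1 and 3. Endothelial, macrophage, smooth muscle and pericyte, tendon and erythroid markers were all above 0 too. So were 7 of 12 fibre, 4 of 7 fibroblast and 3 of 5 Schwann markers, and none was called (edgeR). The part of these cell types in the member values was not tested. In bulk muscle fewer cells of a type and less RNA per cell cannot be told apart.

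The comparison of aged vehicle with young vehicle libraries asked what differs with age. By edgeR's quasi-likelihood test no member was called, at an adjusted p (Benjamini-Hochberg) under 0.05 over 14384 genes, where 1.22% of all genes were. At an unadjusted p under 0.05 there were 6 members, all higher in the aged, against 19.2% of all genes, and neither DESeq2 nor limma-voom called a member. The log2 fold change was above 0 for 62 of 78 members, against 51.1% of all genes. Its median was 0.14 over the members and 0.01 over all genes. Without young vehicle 2 the member median was 0.02, with 43 members above 0. Aged and young vehicle libraries did not overlap for 16 members, all higher in the aged and none lower, against 12.7% of all genes higher and 13.5% lower.

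The 6 members at an unadjusted p under 0.05 were Mrpl23, Mrpl14, Mrpl54, Mrps7, Mrpl41 and Mrps18c. Mrpl14 (ENSMUSG00000023939, GRCm38 chromosome 17 from 45686322 to 45698495) encodes the counterpart of bacterial L14, at the face of the large subunit that meets the small one. It had 54.8, 69.8 and 64.6 CPM in aged vehicle libraries, against 36.0, 43.1 and 44.3 CPM in young vehicle libraries. Every aged vehicle library lay above every young one. This gave 0.61 ± 0.21 on the log2 scale (SE, edgeR adjusted p = 0.178). Its exons share 106 bases with Tmem63b on the opposite strand, at a mean of 68.8 CPM for Tmem63b. In the authors' deposited table Mrpl14 had the smallest adjusted p of the members in this comparison, 0.0457, and was not marked there as significant.

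Mrps7 (ENSMUSG00000046756, chromosome 11 from 115603925 to 115608036), a protein of the head of the small subunit, had 81.3, 80.3 and 83.1 CPM in aged vehicle libraries, against 53.5, 69.5 and 65.1 CPM in young vehicle libraries. The aged values lay within 3 CPM of each other and above all young values. Mrps7 thus had a log2 fold change of 0.38 ± 0.14 (SE, edgeR adjusted p = 0.195). Its exons share 127 bases with Gga3 and 119 with Mif4gd, both on the opposite strand.

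Mrpl54 (ENSMUSG00000034932, chromosome 10 from 81264713 to 81266934), a large-subunit protein with no bacterial counterpart, had 48.9, 46.9 and 63.1 CPM in aged vehicle libraries, against 27.7, 39.1 and 39.3 CPM in young vehicle libraries. Its log2 fold change was 0.58 ± 0.21 (SE, edgeR adjusted p = 0.194). Mrpl41 (ENSMUSG00000036850, chromosome 2 from 24974117 to 24975098), also of the large subunit and without a bacterial counterpart, had 18.5, 20.5 and 18.5 CPM in aged vehicle libraries, against 10.9, 16.1 and 15.1 CPM in young vehicle libraries. The groups did not overlap for either gene, and for both the lowest value was that of young vehicle 2.

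Mrps18 has 3 copies in the nuclear genome. The proteins of Mrps18b and Mrps18c sit in the small subunit and that of Mrps18a in the large one, at separate places. Mrps18c (ENSMUSG00000016833, chromosome 5 from 100798627 to 100804471) had 23.2, 23.9 and 24.9 CPM in aged vehicle libraries, against 15.6, 18.0 and 20.7 CPM in young vehicle libraries, with no overlap and a log2 fold change of 0.41 ± 0.18 (SE, edgeR adjusted p = 0.248). Mrps18b had 36.2, 41.7 and 59.2 CPM in aged vehicle libraries, against 34.9, 41.4 and 39.8 CPM in young vehicle libraries. Mrps18a had 43.2, 51.3 and 48.9 CPM in aged vehicle libraries, against 38.6, 45.3 and 56.9 CPM in young vehicle libraries. The groups overlapped for Mrps18a and Mrps18b, with log2 fold changes of 0.02 and 0.24 (SE 0.19 each), and whether the copies differ from each other in this was not tested. Without aged vehicle 4 the log2 fold change of Mrps18b was 0.0095.

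Mrpl57 (0.45 ± 0.25, SE) was the other member among the 5 most positive log2 fold changes with age, and had 0.27 without aged vehicle 4 and 0.30 without young vehicle 2. The 5 most negative were Mrps11 (-0.51), Mrps10 (-0.50), Mrpl19 (-0.37), Mrpl49 (-0.16) and Mrpl48 (-0.15), with adjusted p from 0.301 to 0.677. Mrps11 had 13.9, 16.8 and 8.62 CPM in aged vehicle libraries, against 14.1, 23.3 and 18.6 CPM in young vehicle libraries. The groups overlapped, and the lowest value was that of aged vehicle 4, without which the log2 fold change was -0.28, and it was -0.32 without young vehicle 3. Mrpl19 had 11.3, 15.5 and 7.88 CPM in aged vehicle libraries, against 14.4, 14.7 and 15.6 CPM in young vehicle libraries. Its lowest value was again in aged vehicle 4, without which the log2 fold change was -0.16.

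**Figure D3:**
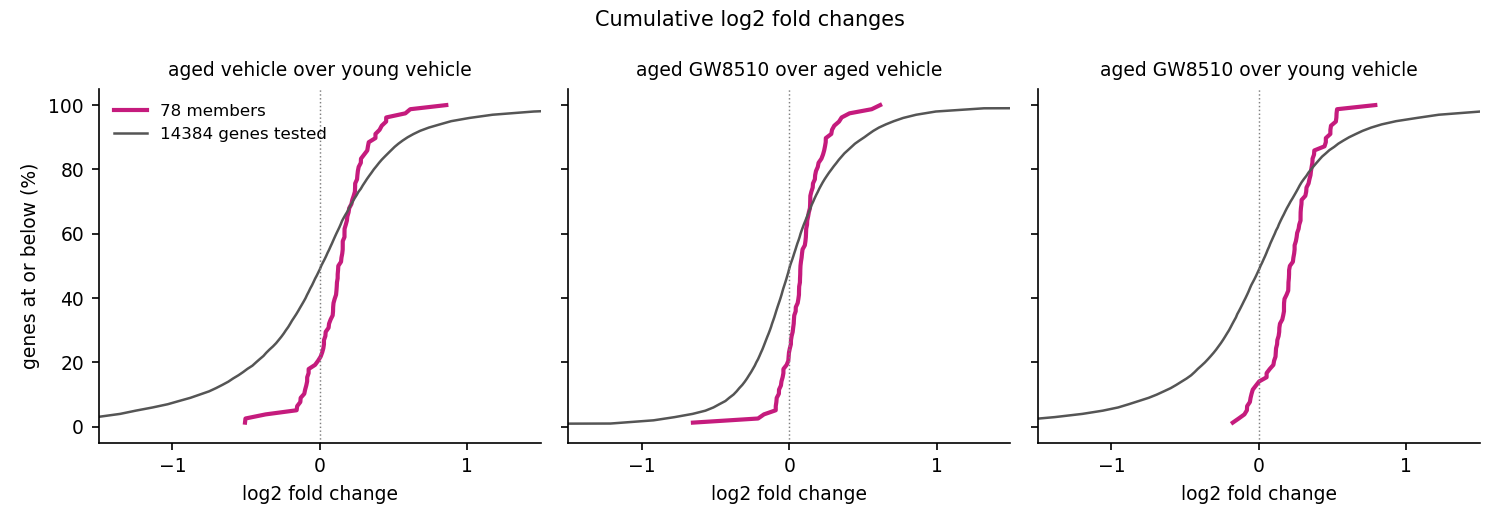
Cumulative share of genes (%) at or below a log2 fold change, for the 78 members and for the 14384 genes tested, in the 3 comparisons. The member curve lies right of 0 for 62, 60 and 68 of 78 members, with medians of 0.14, 0.08 and 0.22, in the order of the panels.

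The comparison of aged GW8510 with aged vehicle libraries asked what differs with treatment. It shares the aged vehicle libraries with the age comparison, on the opposite side. A high or low aged vehicle value thus moves both log2 fold changes of a gene, in opposite directions. Opposite signs with age and treatment are therefore no separate evidence of a reversal. No member was called, nor any gene (0.0% of 14384), by edgeR's quasi-likelihood test, and the smallest adjusted p among the members was 0.934. At an unadjusted p under 0.05 there was 1 member, Mrpl23, against 4.50% of all genes, and neither DESeq2 nor limma-voom called a member. The log2 fold change was above 0 for 60 of 78 members, against 50.9% of all genes, with a median of 0.08 against 0.01 over all genes. With scaling by library size alone the member median was 0.01, with 44 members above 0, while the median over all genes was -0.06. The median was 0.02 without aged GW8510 1 and 0.17 without aged GW8510 4. Summed TPM of the members showed no such rise. It was 6189, 5549 and 4914 TPM in aged GW8510 libraries and 5545, 5644 and 6210 TPM in aged vehicle libraries.

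Mrps35 and Mrps11 were the members whose aged GW8510 libraries all lay above the aged vehicle libraries, against 3.89% of all genes, and none lay below, against 3.33%. Mrps35 (ENSMUSG00000040112, chromosome 6 from 147042764 to 147073991), a small-subunit protein without a bacterial counterpart, had 29.9, 28.9 and 24.5 CPM in aged GW8510 libraries, against 21.4, 22.4 and 24.3 CPM in aged vehicle libraries. The gap between the nearest libraries was small. Mrps35 had a log2 fold change of 0.29 ± 0.14 (SE, edgeR adjusted p = 0.934). Mrps11, the counterpart of bacterial S11, had 17.6, 17.2 and 17.4 CPM in aged GW8510 libraries, against 13.9, 16.8 and 8.62 CPM in aged vehicle libraries. On the log2 scale the difference was 0.41, and 0.17 without aged vehicle 4.

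Mrpl34, of the large subunit, had 48.3, 36.1 and 25.8 CPM in aged GW8510 libraries, against 22.4, 32.9 and 19.4 CPM in aged vehicle libraries. These overlapped, at a log2 fold change of 0.56 ± 0.30 (SE), and 0.31 without aged GW8510 1. The other members among the 5 most positive with treatment were Mrps10 (0.62), Mrpl47 (0.36) and Mrpl28 (0.34). Without aged vehicle 4, Mrpl47 was 0.22 and Mrpl28 was 0.08. The most negative were Mrpl23 (-0.65), Mrpl35 (-0.21), Mrps2 (-0.17), Mrpl54 (-0.09) and Mrpl55 (-0.09), each at an adjusted p of 0.934 or above. Leaving out 1 library moved Mrps2 to -0.0077 (without aged vehicle 4) and Mrpl35 to -0.34 (without aged GW8510 1), and Mrpl54 and Mrpl55 were above 0 without aged GW8510 4 and without aged vehicle 4.

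Aged GW8510 and young vehicle libraries differ in both age and treatment. This comparison shares its libraries with the other two, so its values stand beside theirs and are no separate evidence. No member was called by edgeR's quasi-likelihood test, where 0.751% of all genes were, and 9 members had an unadjusted p under 0.05, all higher, against 16.7% of all genes. DESeq2 called Mrpl14 and Mrps35, at adjusted p of 0.0285 and 0.0344, where it called 4.89% of 16308 genes, and limma-voom called no member. The log2 fold change was above 0 for 68 of 78 members, against 51.3% of all genes, with a median of 0.22 against 0.01 over all genes. Without young vehicle 2 the member median was 0.11, and with scaling by library size alone it was 0.13. Libraries did not overlap for 10 members, all higher in aged GW8510, against 12.9% of all genes higher, and for none lower, against 12.8%.

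Mrpl14 had 69.4, 93.3 and 51.02 CPM in aged GW8510 libraries, against 36.0, 43.1 and 44.3 CPM in young vehicle libraries. The aged GW8510 libraries spread widely, yet each lay above the young ones, at a log2 fold change of 0.79 ± 0.22 (SE, edgeR adjusted p = 0.105). Mrps35 had 29.9, 28.9 and 24.5 CPM in aged GW8510 libraries, against 17.9, 19.9 and 19.7 CPM in young vehicle libraries, at 0.53 ± 0.14 (SE, edgeR adjusted p = 0.0923). In the authors' deposited table the adjusted p was 0.0126 for Mrpl14 and 0.0406 for Mrps35, and neither was marked as significant there.

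Mrpl41 (0.53), Mrpl20 (0.53) and Mrps24 (0.52) were the other members among the 5 most positive. Mrps7 and Mrps18c had log2 fold changes of 0.45 and 0.49, with Mrps18c at 0.30 without aged GW8510 1. The 5 most negative, Mrpl55, Mrpl48, Mrps11, Mrpl27 and Mrpl16, ran from -0.18 to -0.08, and for each of them the libraries overlapped.

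**Figure D4:**
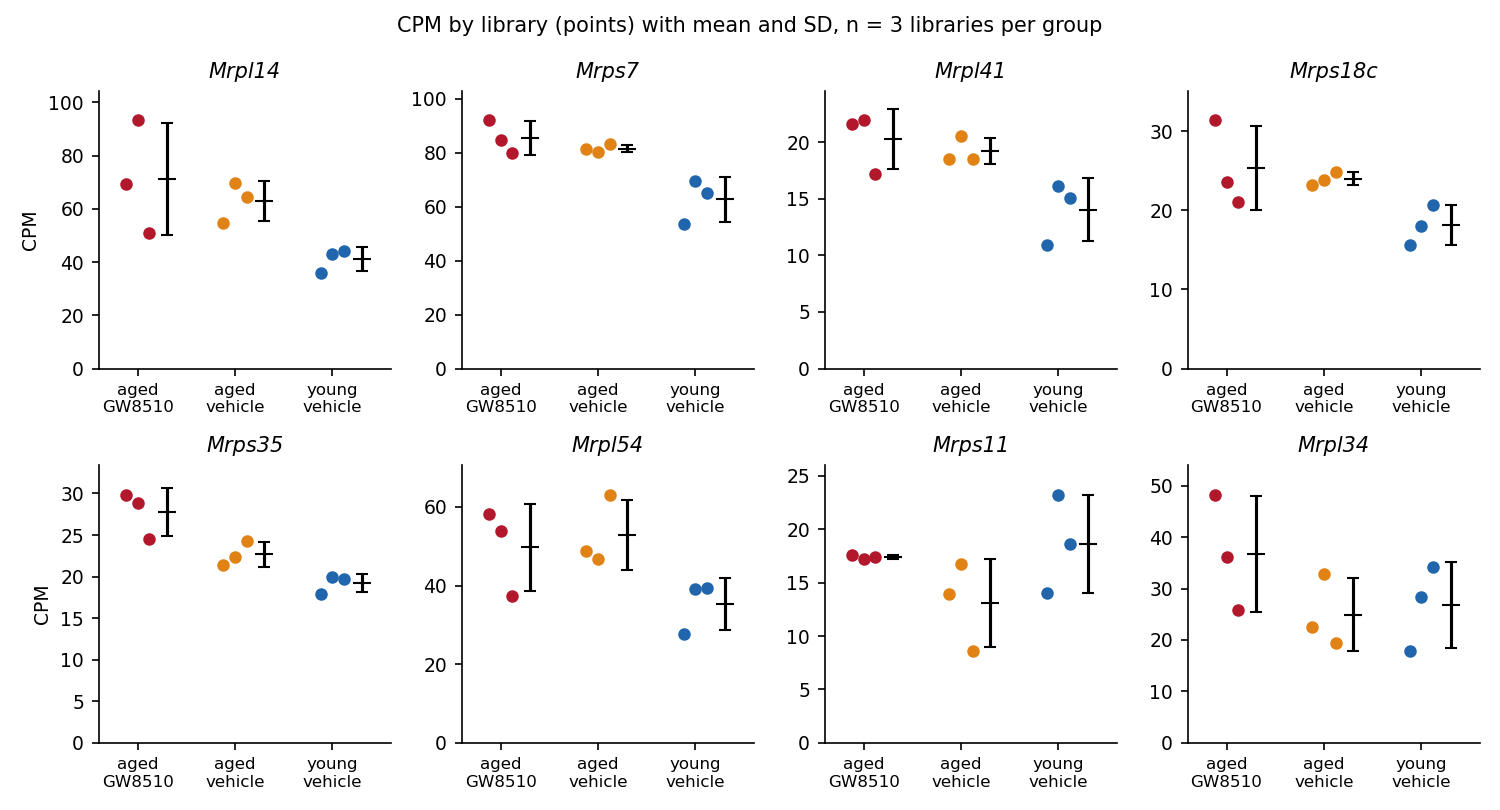
CPM of 8 members in each library (points), with mean and SD of 3 libraries, in aged GW8510, aged vehicle and young vehicle groups. Every aged vehicle value of Mrpl14, Mrps7, Mrpl41, Mrps18c and Mrpl54 lies above every young vehicle value, whereas groups overlap for Mrpl34.

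Mrpl23 had the largest log2 fold change by size of the members both with age and with treatment, and Mrps10 the most positive with treatment. Both have near-identical copies elsewhere in the genome. Mrpl23 (ENSMUSG00000037772, chromosome 7 from 142532686 to 142540747) encodes the counterpart of bacterial L23, near the exit of the peptide tunnel. Its copy, the processed pseudogene Mrpl23-ps1 (chr2:74591330-74591909, minus strand), was identical in 540 of 540 aligned bases of GENCODE M21 transcripts. The start of the coding sequence is shown for both because no base of the aligned stretch tells the copies apart. That stretch is 93.1% of the copy's 580 bases, and bases outside it were not compared.
Mrpl23: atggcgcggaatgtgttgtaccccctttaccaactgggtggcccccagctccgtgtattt
Mrpl23-ps1: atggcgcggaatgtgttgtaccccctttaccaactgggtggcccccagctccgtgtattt

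Mrpl23 had 2.13, 2.92 and 3.29 CPM in GW8510-treated aged libraries, 3.16, 5.32 and 4.68 CPM in vehicle-treated aged libraries and 2.19, 2.83 and 2.22 CPM in young vehicle ones. Mrpl23-ps1 had 95.02, 68.7 and 51.5 CPM in aged GW8510, 62.7, 64.9 and 75.4 CPM in vehicle-treated aged libraries and 44.7, 57.6 and 54.0 CPM in young vehicle ones. The pseudogene thus held most of the counts in every library. For Mrpl23 alone the log2 fold change was 0.86 ± 0.28 with age (SE, edgeR adjusted p = 0.152) and -0.65 ± 0.28 with treatment. With the counts of both added, it was 0.40 with age (edgeR adjusted p = 0.319) and 0.05 with treatment. How reads were shared out between the copies was not tested.

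Mrps10 (ENSMUSG00000034729, chromosome 17 from 47368887 to 47381417), the counterpart of bacterial S10, has a processed pseudogene listed as AC154457.3 (chr17:65438128-65438697, minus strand) with 98.4% identity and 9 differing bases. A 60-base coding stretch is shown with the differing bases in capitals, since these are the letters by which reads could be assigned.
Mrps10: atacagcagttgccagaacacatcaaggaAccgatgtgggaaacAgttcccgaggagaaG
AC154457.3: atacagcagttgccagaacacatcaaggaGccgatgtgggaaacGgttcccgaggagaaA

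Mrps10 had 24.9, 23.4 and 19.8 CPM in aged GW8510, 9.53, 11.4 and 23.5 CPM in vehicle-treated aged libraries and 8.24, 34.0 and 20.8 CPM in young vehicle ones. The copy had 3.77, 3.32 and 2.05 CPM in aged GW8510, 7.06, 8.34 and 4.201 CPM in vehicle-treated aged libraries and 5.64, 0 and 3.59 CPM in young vehicle ones. The 3 libraries with the most copy counts were the 3 with the lowest Mrps10, and the copy was at 0 in young vehicle 3, where Mrps10 was highest. Added together, they had a within-group coefficient of variation of 29.4%, against 44.8% for Mrps10 alone. The sum still ran from 13.9 CPM in young vehicle 2 to 34.0 CPM in young vehicle 3. How reads were shared out between Mrps10 and its copy was not tested. The log2 fold change was -0.17 with age and 0.27 with treatment for the sum, against -0.50 and 0.62 for Mrps10 alone. For Mrps10 alone, leaving out 1 library gave -1.004 to 0.030 with age and 0.38 to 1.10 with treatment. Mrpl48 and Mrpl48-ps, at 98.1% identity, changed little when added, with -0.12 for the sum and -0.15 for Mrpl48 with age.

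**Figure D5:**
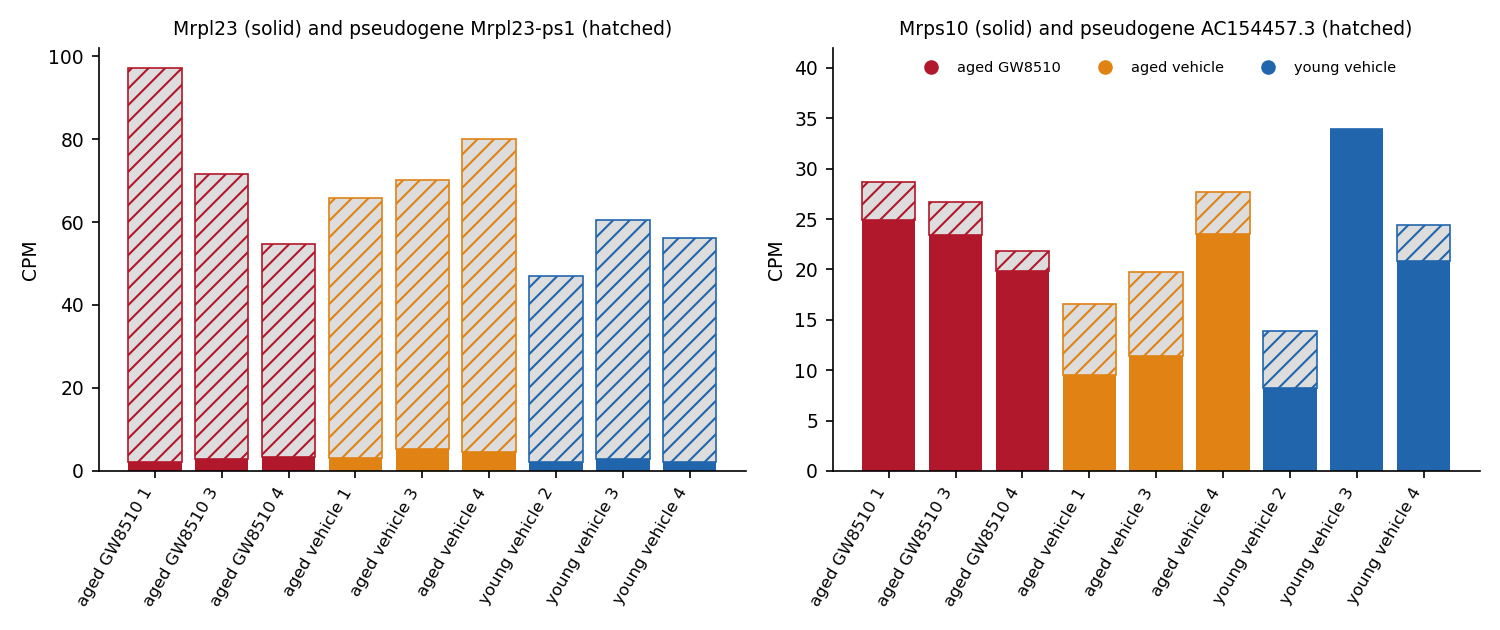
CPM of Mrpl23 and of Mrps10 (solid) with their processed pseudogenes (hatched, stacked) in each aged GW8510, aged vehicle and young vehicle library. Mrpl23-ps1 holds 44.7 to 95.02 CPM while Mrpl23 holds 2.13 to 5.32 CPM.

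Other genes of mitochondrial translation were read from fixed lists, and none of their members passed in any comparison (edgeR). Of the 5 ribosomal subunits under other symbols, Dap3, Ptcd3, Chchd1, Aurkaip1 and Gadd45gip1, all had log2 fold changes above 0 with age, from 0.07 to 0.37, highest in Chchd1. Of 26 genes of ribosome assembly, 15 were above 0 with age, with a median of 0.13. Gtpbp10, a GTPase of large-subunit assembly, averaged 12.8 ± 0.915 CPM in aged vehicle libraries and 7.88 ± 1.84 CPM in young vehicle ones (SD, n = 3 each), at a log2 fold change of 0.70 (edgeR adjusted p = 0.09998). Malsu1, an assembly factor that keeps the subunits apart, had 0.69 with an adjusted p of 0.260 by edgeR, Trub2 0.32 and Mterf3 0.30.

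Of 16 translation factors and messenger RNA-binding proteins, 10 were above 0 with age, with a median of 0.03. Mtrf1l, the mitochondrial release factor, averaged 4.67 ± 1.42 CPM in aged vehicle libraries and 7.26 ± 0.391 CPM in young vehicle ones (SD, n = 3 each), at -0.64 (edgeR adjusted p = 0.192). Slirp (0.43) and its partner Lrpprc (0.28), which bind mitochondrial messenger RNA, and the initiation factor Mtif2 (-0.27) followed. Of 22 genes of aminoacyl-tRNA synthesis, 13 were above 0 with age, among them Iars2 (0.34), Kars (0.46), Nars2 (0.30) and Ears2 (0.29).

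Of 14 regulators of mitochondrial transcription and biogenesis, 10 were above 0 with age, with a median of 0.17. Tfb2m, a transcription factor of mitochondrial DNA, averaged 60.4 ± 12.03 CPM in aged vehicle libraries and 42.002 ± 0.543 CPM in young vehicle ones (SD, n = 3 each), at 0.52 (edgeR adjusted p = 0.139). The coactivator gene Ppargc1b had -0.72 (edgeR adjusted p = 0.210), Gabpb1, a subunit of GABP, -0.41, and Mterf2 0.41. With treatment, 5 of these 14 were above 0, with a median of -0.09.

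Messenger RNAs of the mitochondrial genome, the templates of this ribosome, were above 0 in all 12 tested genes in each comparison, and none was called (edgeR). Their median log2 fold change was 0.43 with age, 0.36 with treatment and 0.76 for aged GW8510 over young vehicle. The member medians in the same comparisons were 0.14, 0.08 and 0.22. Cytosolic ribosomal protein genes had medians of 0.48, 0.00 and 0.47, with 1 of 76 called, higher with age, which is near the 1.22% of all genes called in that comparison.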

How the data were processed

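RNA of 9 muscle libraries was sequenced. The authors deposited unnormalized expected counts per gene and TPM values, per the file headers. Per comparison the authors deposited a log2 ratio, with a column of adjusted p-values. The submitters' processing notes name CASAVA, HISAT2, StringTie, RSEM, DESeq2, edgeR and GRCm38. Versions, roles, annotation and strand use are not given in the sources used here.

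Expected counts were rounded. edgeR 4.0.16 (R 4.3.3) was fitted to all 9 libraries with filterByExpr (14384 genes) and TMM factors. Tests were two-sided quasi-likelihood F tests adjusted by Benjamini and Hochberg over all genes of a comparison, at 0.05. A standard error was the size of the log2 fold change divided by the root of F. Centred levels used log2 CPM with a prior count of 2. DESeq2 1.42.0 and limma 3.58.1 served as alternatives, beside other scalings, no filter, the 6 compared libraries only, a replicate block and 9 fits leaving out 1 library each. The fit was run on simulated counts with larger changes than the member medians and less spread than the data. That run does not bear on finding shifts of the members' size. Coordinates came from GENCODE M21. Copies were aligned with Biopython 1.88.

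The members and lists were chosen with earlier results of these data known. Named members are, per comparison, the 5 most positive and 5 most negative log2 fold changes, the 5 highest and 5 lowest TPM and the 3 Mrps18 copies, with up to 4 genes per pathway list by smallest p with age. Others were named after their values were seen (Mrps7, Mrps35 and those with an unadjusted p under 0.05 or libraries that do not overlap).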

Additional observations from a re-analysis of the deposited data

How the results depend on the processing

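The counts of members called stayed at 0 in the comparisons of age and treatment under all 16 other settings and the 1 added after seeing the data. For aged GW8510 over young vehicle the count was 2 with DESeq2 and 0 in the others. Fits leaving out 1 library called no member in any comparison. Over those 9 fits the member median ran from 0.02 to 0.21 with age, from 0.02 to 0.17 with treatment and from 0.11 to 0.32 for aged GW8510 over young vehicle. Without young vehicle 2, 43 members were above 0 with age, and without aged GW8510 1, 42 with treatment. By deposited TPM, 53 members had a higher mean in aged vehicle than in young vehicle libraries, against 62 by CPM.

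Deviations from the group means had low correlations between libraries of the same replicate number. These were 0.14 and 0.07 between aged and young vehicle and from -0.21 to 0.02 in the other comparisons. The library titles give a group letter and a number only, and a shared preparation or run was not tested. With the replicate number as a block, no member was called, and 5, 0 and 8 of all genes were called with age, with treatment and for aged GW8510 over young vehicle, against 175, 0 and 108 without it. Number 2 occurred in young vehicle only, so the block fit gave young vehicle 2 a term of its own and compared the other libraries. The block is thus no separate check on the part of young vehicle 2. It also differs from leaving out that library alone. Another number occurred in the aged groups only and had no young library within its block. Without young vehicle 2 and with no block, 48, 0 and 63 of all genes were called in the same order. The member median with the block was -0.01 with age, with 38 members above 0, against 0.02 and 43 without young vehicle 2. It was 0.08 with treatment and 0.09 for aged GW8510 over young vehicle, and Mrps18a with age was -0.10. Counts over all genes also moved with no filter (699, 5 and 553) and with DESeq2 (943, 9 and 798). The cause was not tested.

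Of 782 values of named members under alternatives, 759 kept direction and side of the threshold, 21 changed sign and 2 passed the threshold (Mrpl14 and Mrps35 by DESeq2). Scaling by library size alone gave Mrps7 -4.2e-05 with treatment. Adding pseudogene counts, chosen after seeing the data, gave Mrpl23 0.049 with treatment. Beside these and Mrps18a with the block, the sign changes came from leaving out 1 library. With age the range was -0.11 to 0.19 for Mrps18a, -0.28 to 0.0031 for Mrpl48 and -1.004 to 0.030 for Mrps10. With treatment it was -0.11 to 0.18 for Mrps18c, -0.068 to 0.36 for Mrpl14, -0.22 to 0.065 for Mrpl54, -0.24 to 0.10 for Mrpl55 and -0.18 to 0.18 for Mrps18b. For aged GW8510 over young vehicle it was -0.23 to 0.095 for Mrpl27, -0.40 to 0.22 for Mrpl55, -0.21 to 0.011 for Mrpl16 and -0.28 to 0.093 for Mrps11.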
